A study of Mus musculus with 8 samples.

Results

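The genes of sterol and fatty acid synthesis were examined in cultured murine lung ILC2s, group 2 innate lymphoid cells, after activation of the ion channel Piezo1. The set was a list of 35 gene symbols covering 18 enzymes of cholesterol synthesis, 7 genes of sterol uptake, transport and regulation, 8 enzymes of fatty acid synthesis and 2 sterol exporters. Members were kept if they had at least 10 counts in 4 or more libraries, and all 35 of 35 were kept out of the 23183 genes listed in the files. No measured difference between the groups entered that count rule, but the list itself was chosen with earlier results of these data known.

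Bulk mRNA-seq was performed on 8 libraries. The ILC2s of every library came from the lungs of wild-type C57BL/6 J mice (C57BL/6 in the labels) of both sexes, aged 6 to 10 weeks and given IL-33, were enriched with a pan-ILC kit and CD45 beads, and were grown with IL-2, IL-7 and IL-33. The Yoda1 group (4 libraries) received 5 µM Yoda1, a small-molecule agonist of Piezo1, for 3 h, and the DMSO group (4 libraries) received the solvent at 0.1%. Neither the labels nor the methods of the sequencing state whether the 4 replicates came from separate mice or cultures, so the p-values measure the spread between these libraries, which may be technical.

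Cells make cholesterol from acetyl-CoA through mevalonate, squalene and lanosterol. Sterol regulatory element-binding proteins, encoded by Srebf1 and Srebf2, activate the genes of this pathway when their partner SCAP carries them out of the endoplasmic reticulum, and the INSIG proteins hold the complex back when sterol is plentiful. Surplus sterol, in oxidised form, activates the liver X receptors, which turn on the exporters Abca1 and Abcg1 and the ubiquitin ligase gene Mylip. Proliferating lymphocytes draw on both sterol and fatty acid synthesis for new membrane.

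Library totals ran from 12438009 to 19534653 counts. Of the 12239 genes with enough counts to be tested, 1331 passed an adjusted p of 0.05, with 739 higher and 592 lower in Yoda1-treated cells. Upper-quartile scaling turned that split to 505 higher and 958 lower. The ILC2 identity of the cells was checked against 12 marker genes, whose summed level lay between 16932 and 17556 CPM (counts scaled to a library of 1000000) in DMSO and between 19202 and 19592 CPM in Yoda1. Of these genes 6 were higher and 1, Icos, was lower, which is 58.3% called beside 10.9% of all genes tested. Il13, Il2ra and Il5 made up most of the sum (means of 5427, 3535 and 3335 CPM in DMSO). The transcription factor genes Gata3 and Rora did not pass the test, with log2 fold changes of 0.00018 and 0.034. Sftpc of alveolar epithelium and Mertk and Marco of macrophages were listed at 0 in all 8 libraries. Other markers had reads in every library, with 29 to 62 counts for Cd68 of macrophages and 16 to 33 for Epcam of epithelium. Cd79b of B cells had 70 to 128 counts, Cpa3 of mast cells or basophils 23 to 45 and Pecam1 of endothelium 2724 to 4293. None of the genes with these reads passed the adjusted threshold by edgeR. The 4 natural killer cell markers summed to between 413 and 464 CPM in DMSO and between 465 and 490 CPM in Yoda1. Prf1, with a mean of 384 CPM in DMSO and 423 CPM in Yoda1, made up most of that sum. Prf1 and Eomes were higher, which is 50% of the 4 markers beside 6.04% of all genes tested. Ncr1 and Klrb1c had log2 fold changes of -0.23 and -0.21 and did not pass the test. None of the 6 T cell markers passed the adjusted threshold by edgeR, DESeq2 or limma-voom (1 had an unadjusted p under 0.05 by each), and their sums of 69.8 to 77.4 CPM in DMSO and 75.1 to 84.7 CPM in Yoda1 overlapped. The part of these markers in the results that follow was not tested, and in bulk RNA fewer cells of a type and less RNA per cell cannot be told apart.

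Few of the 35 genes passed the test between the groups. In the quasi-likelihood test of edgeR, with p-values adjusted by Benjamini-Hochberg across every gene tested, 5 members passed the threshold, which is 14.3% of them beside 10.9% of all genes tested. Cyp51 and Idi1 were higher in Yoda1-treated cells (2 of 35, with 6.04% of all genes higher), and Acat2, Mvk and Elovl6 were lower (3 of 35, with 4.84% of all genes lower). The groups did not overlap for 5 members, namely Cyp51, Idi1, Fdps, Acat2 and Elovl6, which is 14.3% beside 15.5% of all genes (3 higher beside 8.44%, 2 lower beside 7.05%). The median log2 fold change was 0.019 over the members and -0.0053 over all genes tested, and 22 of 35 members had a fitted change above 0, where 48.4% of all genes did. Both shares of called and of non-overlapping members were near the background.

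**Figure D1:**
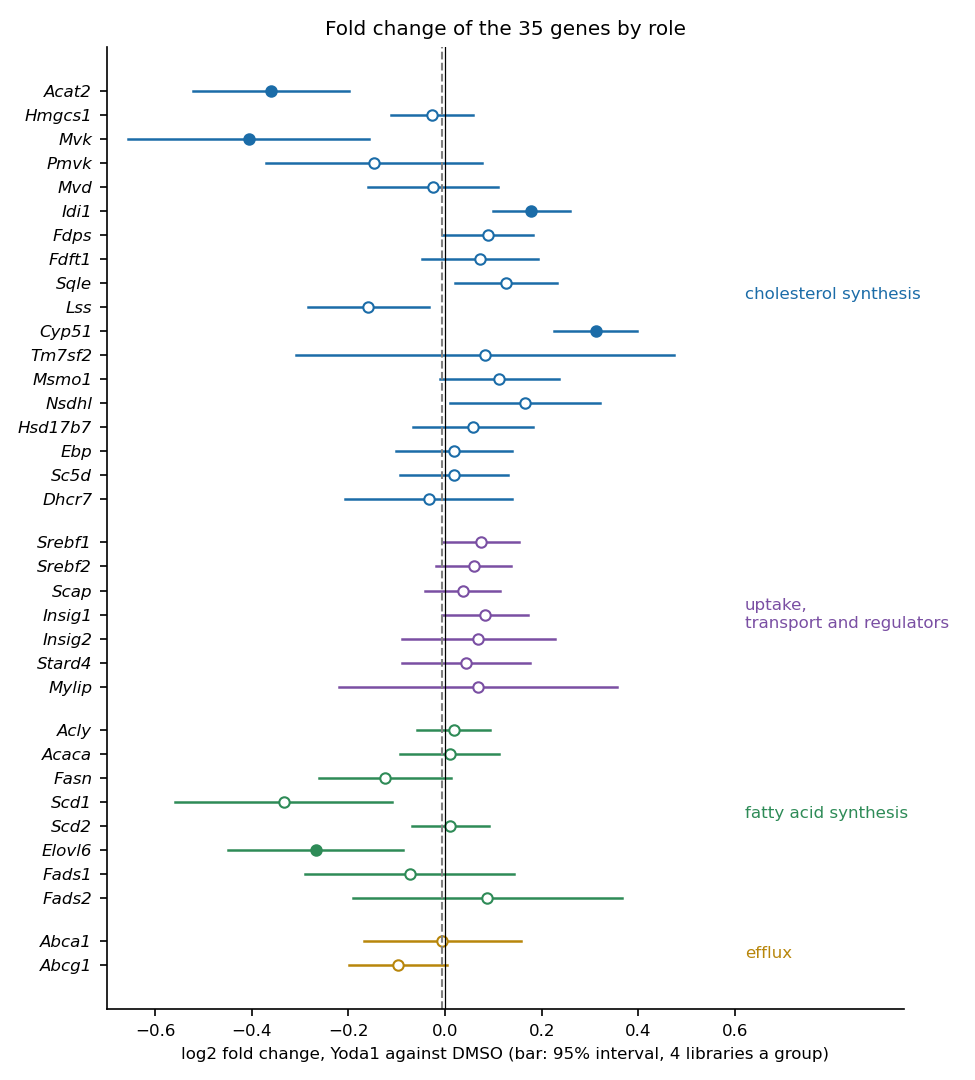
Log2 fold change (x axis, Yoda1 against DMSO) of each of the 35 genes, grouped by role, with its 95% interval as a bar. Filled points are the 5 members with an adjusted p under 0.05, open points are the other 30, the solid line marks 0 and the dashed line marks the median of all genes tested at -0.0053; Cyp51 at 0.31 stands highest and Mvk at -0.41 lowest.

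The promoters of 4 cholesterol enzymes are shown because these genes sit in 1 pathway and moved differently, Cyp51 upward, Mvk and Acat2 downward and Hmgcs1 without passing the test. The stretches come from RefSeq windows (GRCm38.p6) of the 250 bases before the annotated start, run 5′ to 3′ on the strand of the gene and are printed without any annotated exon. Capitals mark the NF-Y box (CCAAT), the Sp1 box (GGGCGG) and the sterol regulatory element (TCACNCCAC), each on either strand.
Cyp51, chr5:4104747-4104947, minus strand: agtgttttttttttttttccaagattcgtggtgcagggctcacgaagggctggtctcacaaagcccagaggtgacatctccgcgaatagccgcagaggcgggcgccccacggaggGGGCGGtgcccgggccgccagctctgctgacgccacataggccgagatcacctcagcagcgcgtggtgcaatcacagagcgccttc
Mvk, chr5:114444061-114444268, plus strand: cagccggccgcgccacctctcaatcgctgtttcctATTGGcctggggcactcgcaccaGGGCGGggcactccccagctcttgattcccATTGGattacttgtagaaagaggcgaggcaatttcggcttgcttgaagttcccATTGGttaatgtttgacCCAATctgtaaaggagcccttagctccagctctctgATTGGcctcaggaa
Acat2, chr17:12960748-12960975, minus strand: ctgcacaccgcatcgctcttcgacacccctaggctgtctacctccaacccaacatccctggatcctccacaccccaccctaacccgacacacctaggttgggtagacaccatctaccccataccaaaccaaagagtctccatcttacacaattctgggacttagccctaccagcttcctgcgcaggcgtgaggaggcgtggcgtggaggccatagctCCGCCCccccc
Hmgcs1, chr13:119690101-119690350, plus strand: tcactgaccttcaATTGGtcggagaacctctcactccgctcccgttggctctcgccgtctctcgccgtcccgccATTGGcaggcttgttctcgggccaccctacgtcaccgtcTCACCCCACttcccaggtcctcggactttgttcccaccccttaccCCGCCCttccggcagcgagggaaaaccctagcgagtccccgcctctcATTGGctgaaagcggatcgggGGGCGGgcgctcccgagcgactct

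RefSeq windows were matched for 27 of the 35 members, some with more than 1 start. The counts of motifs are over whole windows, including exon left out of the printed stretches, such as the part of the Cyp51 window that holds its NF-Y box at -29 to -25 from the start and the part of the Mvk window that holds the second of its 2 Sp1 boxes. The NF-Y box was present in 20 of these 27 genes and in 60.0% of their windows, beside 33.85% of all 32851 promoter windows of the same length. The Sp1 box was present in 23 genes and 74.3% of their windows, beside 32.74% of all windows. The sterol regulatory element in the spelling searched was found in 1 member, Hmgcs1, beside 1.05% of all windows. The E-box CACGTG was found in 17.1% of member windows and 6.02% of all windows, the AP-1 site TGANTCA in 5.7% and 6.75%, and the cyclic AMP element TGACGTCA in no member window and 1.55% of all windows. Cyp51, which rose, held 1 NF-Y box, Mvk and Acat2, which fell, held 5 and 0, and Hmgcs1, which did not pass the test, held 3. No overlap was found between the boxes marked in the 4 printed stretches. These matches describe letters, not bound sites. The shares over all windows include genes at any level, while every member had passed a count rule. Shares among expressed genes only were not computed.

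Among the 18 enzymes of cholesterol synthesis, 2 rose, 2 fell and 14 did not pass the test, so that 22.2% were called beside 10.9% of all genes tested (6.04% higher and 4.84% lower). Cyp51, the lanosterol demethylase, had the smallest adjusted p of all 35 members. Its level was 60.5, 60.0, 61.8 and 61.8 CPM in DMSO replicates 1 to 4 and 75.3, 75.6, 77.0 and 75.1 CPM in Yoda1 replicates 1 to 4. All 4 treated libraries lay above all 4 controls, and the spread within each group was small beside the gap. The mean rose from 61.0 ± 0.911 CPM to 75.7 ± 0.841 CPM (SD, n = 4 in either group), and the fitted log2 fold change was 0.31 (SE 0.042) with an adjusted p of 5.12e-06 by edgeR. The gene lies on chromosome 5 at 4081145 to 4104746 (GRCm38, minus strand) and shares 166 bp of exon with Akap9 on the opposite strand. Akap9 had a log2 fold change of -0.0080 (adjusted p = 0.933 by edgeR), and whether reads were assigned by strand is not given in the sources used here.

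Idi1 encodes the isomerase that turns isopentenyl into dimethylallyl diphosphate. Its level was 119, 117, 118 and 127 CPM in the DMSO libraries and 134, 135, 139 and 135 CPM in the Yoda1 libraries. The groups did not overlap, with DMSO replicate 4 the nearest to the treated libraries. Its fitted log2 fold change was 0.18 (SE 0.039), with an adjusted p of 0.00242 by edgeR. The processed pseudogene Gm13502 matches the transcript at 100% over 684 bp, so that reads of either could be assigned to Idi1.

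Acat2, the cytosolic thiolase that opens the pathway, was at 20.3, 18.4, 17.8 and 18.9 CPM in DMSO and at 14.6, 14.2, 13.3 and 16.3 CPM in Yoda1. Every treated library was below every control. Fitted over both groups, the log2 fold change was -0.36 (SE 0.079), with an adjusted p of 0.00269 by edgeR. The neighbouring gene Acat3 matches the Acat2 transcript at 97.7% over 1477 bp, and its mean was 42.6 CPM in DMSO and 44.3 CPM in Yoda1 with a log2 fold change of 0.053 (adjusted p = 0.60 by edgeR). With the counts of both genes summed, an alternative chosen after seeing the data, the log2 fold change was -0.062 and the adjusted p was 0.477 by edgeR. Since Acat3 holds more of that sum than Acat2, a change in Acat2 alone also shrinks in it, and how the authors divided reads between the copies was not tested.

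Mvk, the kinase that phosphorylates mevalonate, was read at few counts, between 68 and 143 per library. It stood at 8.94, 7.33, 9.14 and 7.09 CPM in DMSO and at 5.49, 6.08, 7.57 and 5.55 CPM in Yoda1. The groups overlapped, since Yoda1 replicate 3 was above DMSO replicates 2 and 4. Mvk had a log2 fold change of -0.41 (SE 0.12) with an adjusted p of 0.0289 by edgeR. The call was lost with DESeq2 (adjusted p = 0.0568) and without DMSO replicate 1 (0.0656), DMSO replicate 3 (0.103), Yoda1 replicate 1 (0.0897), Yoda1 replicate 2 (0.0537) or Yoda1 replicate 4 (0.118), all by edgeR.

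**Figure D2:**
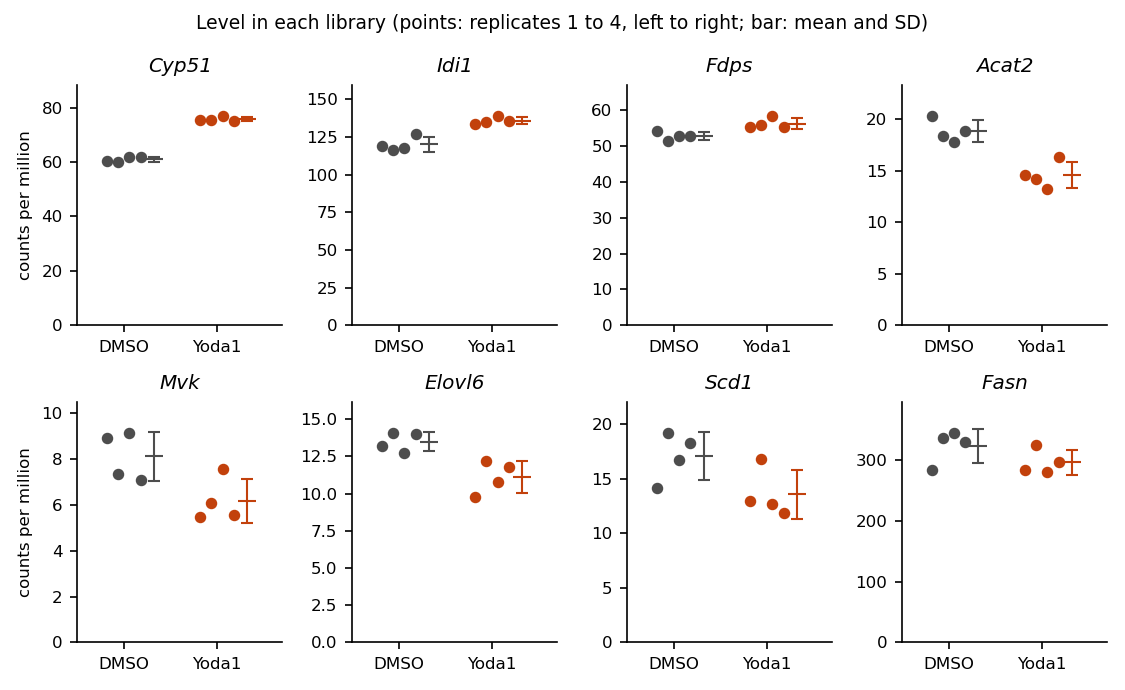
Level in CPM of the TMM-scaled library (y axis, from 0) of 8 genes in each DMSO (grey) and Yoda1 (orange) library, with replicates 1 to 4 from left to right and the mean with its SD beside them. Cyp51, Idi1 and Fdps have all treated points above all controls, Acat2 and Elovl6 have all treated points below, and Mvk, Scd1 and Fasn overlap.

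Fdps makes farnesyl diphosphate, the branch point to sterols and prenylated proteins. It was at 54.2, 51.6, 52.8 and 52.8 CPM in DMSO and at 55.3, 55.8, 58.4 and 55.4 CPM in Yoda1. The groups did not overlap, but the difference was small, with a log2 fold change of 0.089 (95% interval -0.0055 to 0.18) and an adjusted p of 0.230 by edgeR. Fdps shares 1124 bp of exon on its own strand with the annotated gene Gm43738 and has 4 near-identical processed pseudogenes.

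Sqle, the squalene epoxidase, was at 45.5, 43.9, 41.6 and 42.0 CPM in DMSO and at 49.4, 48.0, 47.4 and 44.8 CPM in Yoda1. Yoda1 replicate 4 lay below DMSO replicate 1, and the remaining treated libraries lay above all controls. Its log2 fold change was 0.13 (95% interval 0.021 to 0.23) with an adjusted p of 0.115 by edgeR. Hmgcs1, the synthase that makes HMG-CoA, was at 90.7, 85.0, 89.8 and 92.0 CPM in DMSO and at 87.6, 88.3, 90.1 and 85.0 CPM in Yoda1. These groups overlapped almost fully, and the log2 fold change of -0.027 had a 95% interval of -0.11 to 0.058.

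The other enzymes, none of which passed the test, are given by their log2 fold changes. Before squalene, the phosphomevalonate kinase Pmvk was at -0.15, the decarboxylase Mvd at -0.024 and the squalene synthase Fdft1 at 0.072. After squalene, the lanosterol synthase Lss was at -0.16 (adjusted p = 0.0925 by edgeR), the sterol demethylation enzymes Msmo1 and Nsdhl at 0.11 and 0.16 and their partner Hsd17b7 at 0.058. The reductase Tm7sf2 was at 0.083, the isomerase Ebp at 0.018, the desaturase Sc5d at 0.019 and the final reductase Dhcr7 at -0.034. Of the 8 enzymes up to squalene 3 passed the test (37.5%) and of the 10 after it 1 did (10%), beside 10.9% of all genes, and their median log2 fold changes were -0.026 and 0.070. The difference between the segments was not tested.

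Counted together, the 18 enzymes summed to between 667 and 695 CPM in DMSO and between 710 and 726 CPM in Yoda1. The groups of sums did not overlap, and the treated mean was 1.05 times the control mean. Without Cyp51 and Idi1, a sum chosen after seeing the data, the other 16 enzymes lay between 490 and 515 CPM in DMSO and between 499 and 510 CPM in Yoda1, and the ratio was 1.01. The median log2 fold change of the 18 was 0.038, beside -0.0053 for all genes.

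Ratios of read counts within a library do not depend on how libraries are scaled. Cyp51 had 0.667 to 0.706 reads for each read of Hmgcs1 in DMSO and 0.854 to 0.884 in Yoda1. Against Lss, which precedes it in the pathway, the ratio was 1.64 to 1.92 in DMSO and 2.34 to 2.73 in Yoda1. The ratio of Idi1 to Mvk was 12.9 to 17.9 in DMSO and 18.4 to 24.4 in Yoda1. The 3 pairs were chosen after their values were seen and were not tested, each setting a gene that rose beside one that did not, so the lack of overlap between the groups is a description only.

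**Figure D3:**
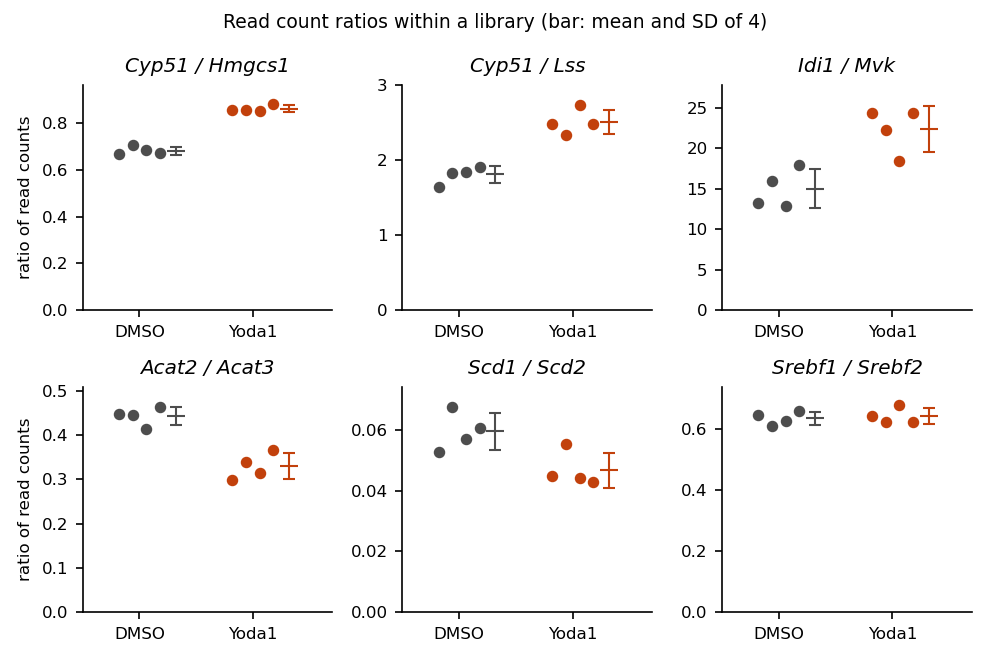
Ratio of read counts of the named gene pairs (y axis, from 0) in each DMSO (grey) and Yoda1 (orange) library, with the mean and SD of the 4 beside them. The groups separate for Cyp51 over Hmgcs1, Cyp51 over Lss, Idi1 over Mvk and Acat2 over Acat3, and overlap for Scd1 over Scd2 and Srebf1 over Srebf2.

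The regulators and sterol handling genes formed the second role. None of the 7 passed the adjusted threshold, or an unadjusted p of 0.05, by edgeR, DESeq2 or limma-voom. Over all genes tested, 10.9% passed the adjusted threshold by edgeR. All 7 fitted log2 fold changes were above 0, where 48.4% of all genes tested were. The fitted changes lay between 0.036 and 0.083, with a median of 0.068. The summed level of the 7 genes was 630 to 647 CPM in DMSO and 651 to 684 CPM in Yoda1, a ratio of 1.04. These sums did not overlap under TMM scaling and did overlap under scaling by library size alone, where the ratio was 1.03.

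Srebf1, the regulator linked most to fatty acid genes, was at 145, 142, 154 and 151 CPM in DMSO and at 153, 159, 161 and 149 CPM in Yoda1. Srebf2, linked most to cholesterol genes, was at 224, 233, 245 and 228 CPM in DMSO and at 238, 256, 236 and 239 CPM in Yoda1. Both overlapped between groups, with log2 fold changes of 0.074 (95% interval -0.0059 to 0.15) and 0.059 (-0.018 to 0.14). Reads of Srebf1 per read of Srebf2 ran from 0.610 to 0.659 in DMSO and from 0.623 to 0.681 in Yoda1. Their coding sequences were 64.0% identical over 3211 aligned bp. Scap, which escorts both proteins, had a log2 fold change of 0.036.

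Insig1, itself a target of the sterol pathway, was at 82.5, 77.6, 75.0 and 76.2 CPM in DMSO and at 86.8, 81.6, 81.1 and 80.6 CPM in Yoda1. DMSO replicate 1 lay within the treated range and the other controls lay below it. The log2 fold change was 0.083 (95% interval -0.0066 to 0.17), with an adjusted p of 0.238 by edgeR. Insig2 was at 21.8, 22.8, 19.4 and 21.1 CPM in DMSO and at 19.4, 22.3, 26.0 and 21.6 CPM in Yoda1, with a log2 fold change of 0.068 (95% interval -0.090 to 0.23). The sterol carrier gene Stard4 had a log2 fold change of 0.043. Mylip, whose product marks lipoprotein receptors for degradation, was at 4.75, 5.09, 4.22 and 4.36 CPM in DMSO and at 5.81, 4.20, 5.47 and 4.27 CPM in Yoda1. Its groups overlapped, and at 59 to 93 counts per library the 95% interval of -0.22 to 0.36 was wide.

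The 8 enzymes of fatty acid synthesis had 1 member that fell by edgeR, Elovl6, which is 12.5% beside 4.84% of all genes. DESeq2 called Scd1 lower (adjusted p = 0.0487) and not Elovl6, and limma-voom called neither. None rose by edgeR, DESeq2 or limma-voom, also at an unadjusted p of 0.05. Elovl6, which lengthens palmitate to stearate, was at 13.2, 14.1, 12.7 and 14.0 CPM in DMSO and at 9.76, 12.2, 10.8 and 11.8 CPM in Yoda1. The groups did not overlap, although Yoda1 replicate 2 lay close under DMSO replicate 3. The log2 fold change was -0.27 (SE 0.089) and the adjusted p was 0.0477 by edgeR, just inside the threshold. The call was lost in 11 of 17 alternatives, among them DESeq2 (adjusted p = 0.0945), limma-voom (0.0520) and the omission of any library other than Yoda1 replicate 2 (0.0510 without DMSO replicate 3 to 0.154 without Yoda1 replicate 1, by edgeR).

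Scd1, a desaturase that makes oleate, was just outside the threshold. It was at 14.1, 19.2, 16.7 and 18.2 CPM in DMSO and at 12.9, 16.8, 12.7 and 11.8 CPM in Yoda1. DMSO replicate 1 and Yoda1 replicate 2 made the groups overlap. The log2 fold change was -0.33 (95% interval -0.56 to -0.11) with an adjusted p of 0.0508 by edgeR, and 8 of 17 alternatives gave an adjusted p below the threshold, from 0.0488 with at least 10 counts required in every library to 0.00188 without Yoda1 replicate 2 and 0.00367 without DMSO replicate 1. Its paralog Scd2 was at 269, 285, 293 and 301 CPM in DMSO and at 288, 304, 288 and 276 CPM in Yoda1, with a log2 fold change of 0.011 (95% interval -0.068 to 0.090), which was below 0 under library-size and upper-quartile scaling. Scd1 and Scd2 transcripts matched at 95.5% over 623 bp, so a part of the reads of the minor paralog may be uncertain. Reads of Scd1 per read of Scd2 were 0.0526 to 0.0673 in DMSO and 0.0428 to 0.0553 in Yoda1, which overlap.

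Fasn, the fatty acid synthase, was at 284, 336, 345 and 330 CPM in DMSO and at 284, 325, 281 and 297 CPM in Yoda1. DMSO replicate 1 lay among the treated libraries, and the other 3 controls lay above all of them. Its log2 fold change was -0.13 (95% interval -0.26 to 0.012) with an adjusted p of 0.240 by edgeR. Without DMSO replicate 1 the log2 fold change was -0.18 and the adjusted p was 0.00204, without Yoda1 replicate 2 the adjusted p was 0.0410, and with no filter on low counts it was 0.0184, all by edgeR. DMSO replicate 1 was the lowest control for 4 of the 8 fatty acid genes, and for Acaca it stood at 89.3 CPM with the next control at 105 CPM.

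The remaining fatty acid enzymes did not pass the test. Acly, which splits citrate into acetyl-CoA, had a log2 fold change of 0.018 and Acaca, the carboxylase that makes malonyl-CoA, had 0.0092, and both turned below 0 under library-size and upper-quartile scaling. The desaturases Fads1 and Fads2 had -0.073 and 0.087. The median of the 8 genes was -0.032, and their sums of 903 to 1017 CPM in DMSO and 933 to 1010 CPM in Yoda1 overlapped.

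The 2 exporters did not pass the adjusted threshold, or an unadjusted p of 0.05, by edgeR, DESeq2 or limma-voom. Of all genes tested, 10.9% passed the adjusted threshold by edgeR. Abca1, which loads cholesterol onto apolipoprotein A-I, was at 25.5, 28.7, 32.6 and 33.1 CPM in DMSO and at 31.9, 32.4, 27.3 and 27.5 CPM in Yoda1. Abcg1, which passes cholesterol to larger lipoproteins, was at 80.4, 92.8, 88.2 and 88.4 CPM in DMSO and at 83.6, 87.5, 74.3 and 81.5 CPM in Yoda1. The groups overlapped for both, with log2 fold changes of -0.0063 (95% interval -0.17 to 0.16) and -0.098 (-0.20 to 0.0038).

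Over the 30 members that did not pass, the 95% interval of the log2 fold change lay within 0.3 of 0 in 24. The intervals of the other 6 reached further, from -0.56 for Scd1 to 0.47 for Tm7sf2, so larger differences are not excluded for these (Pmvk, Tm7sf2, Nsdhl, Mylip, Scd1 and Fads2). Among all 30, the intervals of Nsdhl, Scd1, Sqle and Lss did not include 0, although none of these genes passed the adjusted threshold.

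Levels between genes were compared per kilobase of the principal GENCODE transcript. In DMSO the most abundant of the 35 transcripts by this measure were Scd2 at 52.6 ± 2.52 and Acly at 51.3 ± 1.81 CPM per kb (SD, n = 4), which did not differ beyond their spread. Srebf2 followed at 45.8 ± 1.78 and Idi1 at 39.7 ± 1.60, and Idi1 and Fdps (38.2 ± 0.791) lay within their spread of each other. The order rests on the length used. Per kilobase of all exons of the gene joined, Scd2 was at 52.5 ± 2.51, Acly at 42.7 ± 1.50, Idi1 at 34.3 ± 1.38, Srebf2 at 32.3 ± 1.26 and Fdps at 12.6 ± 0.260, so that Acly stood below Scd2 and Fdps below Idi1 beyond their spread. At the other end, per principal transcript, were Tm7sf2 at 1.62 ± 0.356 and Mylip and Fads2, both at 1.50. Scd2 exceeded Scd1 14.9-fold in DMSO and 18.9-fold in Yoda1. Idi1 exceeded Mvk 8.10-fold in DMSO and 12.1-fold in Yoda1, and Insig1 exceeded Insig2 3.66-fold and 3.69-fold. Of the members that fell, Mvk (4.90 CPM per kb in DMSO) ranked 2 from the lowest of the 18 cholesterol enzymes and Elovl6 (2.27) ranked 2 from the lowest of the 8 fatty acid enzymes, while Acat2 (8.38) ranked 8 of 18, in the middle of its role.

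**Figure D4:**
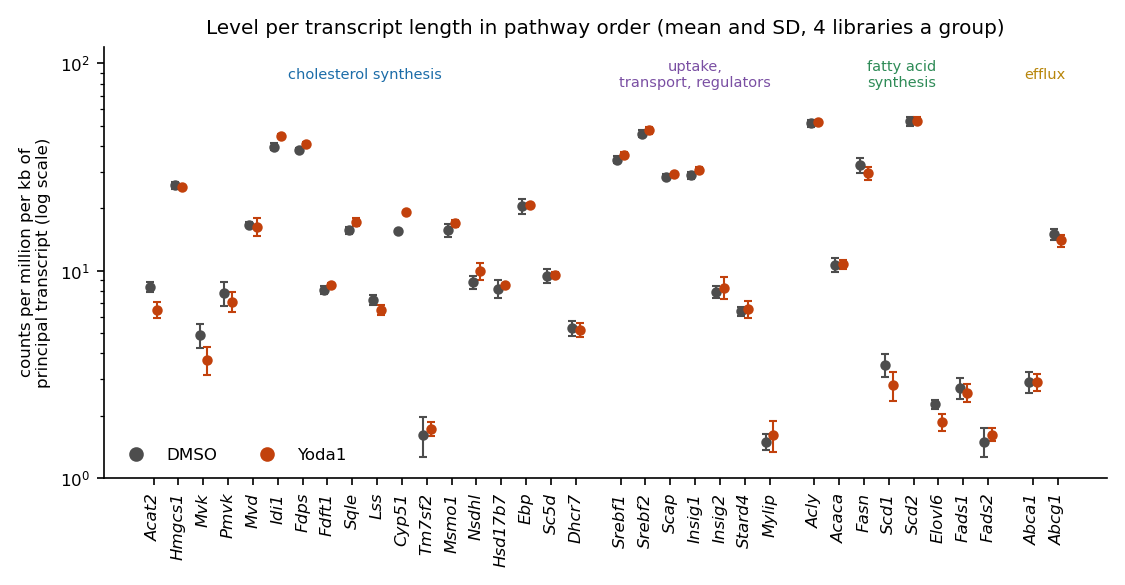
Level in CPM per kilobase of principal transcript (y axis, log scale) of the 35 genes in pathway order, with points for the mean and bars for the SD of 4 DMSO (grey) and 4 Yoda1 (orange) libraries. Levels span from 1.50 for Fads2 and Mylip to 52.6 for Scd2 in DMSO, and at this scale the groups separate visibly at few genes, among them Cyp51 and Acat2.

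Further genes of the pathways were counted from 4 lists, of which 59 of 65 genes were tested. Of these 9 passed the test, 5 higher and 4 lower, which is 15.3% beside 10.9% of all genes. None of the 15 genes of SREBP processing and turnover passed the adjusted threshold by edgeR, DESeq2 or limma-voom (3, 2 and 3 had an unadjusted p under 0.05), with fitted log2 fold changes between -0.063 and 0.15. In the liver X receptor arm 2 of 10 fell, beside 4.84% of all genes, the receptor partner Rxra and the transporter Abca7. Rxra was at 22.0, 23.0, 23.6 and 20.7 CPM in DMSO and at 19.4, 16.7, 19.9 and 18.5 CPM in Yoda1, so the groups did not overlap, and the log2 fold change was -0.27 (adjusted p = 0.0139 by edgeR). Abca7 had a log2 fold change of -0.15. In the isoprenoid branches 1 of 10 rose, beside 6.04% of all genes, namely Icmt, which methylates prenylated proteins, at 0.18 (adjusted p = 0.00915 by edgeR).

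Among 24 tested genes of fatty acid supply and use 4 rose and 2 fell by edgeR, which is 25% called beside 10.9% of all genes (6.04% higher and 4.84% lower), and DESeq2 called 2 higher and 1 lower. Plin2, the coat protein of lipid droplets, was at 476, 461, 453 and 450 CPM in DMSO and at 567, 548, 574 and 588 CPM in Yoda1. All treated libraries lay above all controls, and the log2 fold change of 0.31 (SE 0.035) had an adjusted p of 2.37e-07 by edgeR. The elongase Elovl1 had a log2 fold change of 0.13, the mitochondrial carnitine palmitoyltransferase Cpt1a 0.12 and the glucose-responsive regulator Mlxip 0.12. Fabp5, a fatty acid carrier, was at 194, 194, 179 and 185 CPM in DMSO and at 164, 162, 172 and 166 CPM in Yoda1, with a log2 fold change of -0.18 (adjusted p = 0.00155 by edgeR). Gpam, the acyltransferase that begins triglyceride synthesis, had a log2 fold change of -0.33 (adjusted p = 0.0263 by edgeR).

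The RNA of cell cycle genes, which does not measure cell division itself, was read beside the sterol genes. Of 12 such genes 4 fell by edgeR (Mki67, Top2a, Ccna2 and Cdk1), which is 33.3% beside 4.84% of all genes, while DESeq2 called 4 lower and limma-voom 3. None rose by edgeR, DESeq2 or limma-voom, also at an unadjusted p of 0.05. Their summed level was 1482 to 1573 CPM in DMSO and 1408 to 1450 CPM in Yoda1, without overlap. The part of this difference in the values of the sterol and fatty acid genes was not tested.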

How the data were processed

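The deposited files hold, 1 per library, whole-number read counts by gene symbol that the authors had not normalized. The submitters' processing notes name TopHat and the build mm10, and the methods list Cufflinks, BBMap, FASTX Trimmer and FastQC for reads from a directional poly(A) library kit. Which annotation and which strand rule the counting used is not given in the sources used here. Counts were of reads without molecular identifiers, so depth (12438009 to 19534653 per library) sets only the counting part of the error.

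Low genes were removed by filterByExpr of edgeR (at least 10 counts in enough libraries and 15 in total), libraries were scaled by TMM, and Yoda1 was compared with DMSO in R 4.3.3 by the robust quasi-likelihood test of edgeR 4.0.16, with Benjamini-Hochberg adjustment over all 12239 genes tested and a threshold of 0.05. CPM values are counts scaled to 1000000 per TMM-scaled library. The SE is the absolute log2 fold change over the root of F, and 95% intervals use the total degrees of freedom of that fit. On simulated data of 12157 genes tested, the Yoda1 against DMSO comparison recovered 62.2% of genes changed by 0.3 and 87.9% of those changed by 0.6 on the log2 scale, and 4.52% of calls were false. Each simulated gene took the spread typical of genes at its level, so these rates do not cover genes with a larger spread or an outlying library.

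Gene positions, lengths and overlaps came from GENCODE M21 (GRCm38) and promoter windows from RefSeq. Near-identical copies were transcripts aligned at 95% or more over 200 bp or more. Members and lists were chosen with earlier results of these data known. All 35 members are accounted for. Library values are given for members past the threshold or without overlap and for a named set of regulators and enzymes, and further pathway genes are named where they passed. Alternatives were DESeq2 1.42.0, limma-voom (limma 3.58.1), 3 other scalings, 3 other filters, the replicate number as a block and the omission of each library.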

Additional observations from a re-analysis of the deposited data

Results flagged for a closer look

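Among 70 groups of 4 libraries (35 genes in each of 2 groups), 6 had a library set apart from the others by more than Dixon's 95% limit, where chance would give about 3.5. Pmvk was at 7.48 CPM in DMSO replicate 3 with the next library at 9.82 CPM, and at 9.84 CPM in Yoda1 replicate 1 with the next at 8.17 CPM. Ebp was at 31.4 CPM in DMSO replicate 4, below the next at 36.8 CPM. Acaca was at 89.3 CPM in DMSO replicate 1, below the next at 105 CPM. Srebf2 was at 256 CPM in Yoda1 replicate 2, above the next at 239 CPM. Insig1 was at 86.8 CPM in Yoda1 replicate 1, above the next at 81.6 CPM. None of these 5 genes passed the test between the groups.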

How the results depend on the processing

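Cyp51 and Idi1 were called higher under all 17 alternatives, with log2 fold changes of 0.28 to 0.32 and 0.15 to 0.21. The count of members called lower, 3 as reported, was 5 with upper-quartile factors and 1 to 4 when single libraries were left out, with 1 without DMSO replicate 3, Yoda1 replicate 1 or Yoda1 replicate 4. The count of all genes called lower, 592 as reported, was 958 with upper-quartile factors and 367 to 677 with single libraries left out (367 without DMSO replicate 2, 374 without Yoda1 replicate 4). With upper-quartile factors the median log2 fold change was 0.0076 for cholesterol synthesis and 0.038 for uptake, transport and regulators, and with single libraries left out the latter ran from 0.038 to 0.086. Of 596 refitted values of single members, 535 kept their side, 18 lost and 12 gained the threshold and 31 changed sign, none of the last for a called member. Under library size only and upper-quartile factors the signs turned for Ebp (-0.0032 and -0.013), Sc5d (-0.0028 and -0.012), Acly (-0.0037 and -0.013), Acaca (-0.012 and -0.021) and Scd2 (-0.011 and -0.020). With single libraries left out, ranges that crossed 0 were -0.075 to 0.023 for Mvd, -0.012 to 0.22 for Tm7sf2, -0.034 to 0.039 for Ebp, -0.028 to 0.063 for Sc5d, -0.082 to 0.021 for Dhcr7, -0.0028 to 0.12 for Insig2, -0.0035 to 0.10 for Stard4, -0.011 to 0.14 for Mylip, -0.048 to 0.035 for Acaca, -0.019 to 0.034 for Scd2, -0.13 to 0.013 for Fads1 and -0.076 to 0.041 for Abca1. The cause was not tested. Same-numbered libraries showed little shared deviation (correlations -0.028 to 0.071), which cannot show whether they were prepared together. With the replicate number as a block 966 genes, 2 members higher and 3 lower were called, Scd1 gaining (adjusted p = 0.0267 by edgeR) and Elovl6 losing (0.0543). Depth limits Tm7sf2, Mylip, Fads2 and Mvk most, whose libraries held 27 to 143 counts.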

Other observations

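Of 8 genes of the mTOR pathway, which senses nutrients and growth signals, none passed the adjusted threshold by edgeR, DESeq2 or limma-voom (2 had an unadjusted p under 0.05 by each), with a median log2 fold change of 0.045. Their summed level was 695 to 730 CPM in DMSO and 727 to 750 CPM in Yoda1, and these groups overlapped.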
